A study of Mus musculus with 12 samples.

Results

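The genes described here are 10 regulators of apoptosis of the Bcl2 family, Bcl2, Bcl2l1, Mcl1, Bax, Bak1, Bbc3, Pmaip1, Bid, Bcl2l11 and Bad. They were chosen by symbol, and each matched 1 row of the raw count tables, so that they are 10 of 24525 genes. The counts came from mRNA of neural stem/progenitor cells (NSPCs) of C57BL/6 mice, grown as neurospheres from E14.5 embryonic forebrain and sampled at passage 1 in medium with 20 ng/ml EGF and 10 ng/ml bFGF. There were 3 wild-type and 3 Ythdf2-/- input libraries, which received no antibody. The Ythdf2 allele was cut by a ubiquitously expressed Cre that removes the first exon, so the gene was lost in the whole embryo and not in NSPCs alone, and the number of embryos behind a culture is not given in the sources used here. The 6 m6A-enriched samples of the same cultures were not analysed here.

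Apoptosis through the mitochondria is governed by contacts between proteins of this family. Pro-survival proteins (Bcl2, Bcl2l1 and Mcl1) hold the effectors Bax and Bak1 in check, and BH3-only proteins (Bbc3, Pmaip1, Bid, Bcl2l11 and Bad) are switched on by stress or loss of growth factors and either occupy the groove of the pro-survival proteins or act on the effectors themselves. Once Bax and Bak1 assemble in the outer mitochondrial membrane, cytochrome c escapes and caspases are activated, a route that removes surplus progenitors and neurons in the developing forebrain. Much of this control lies in protein binding, cleavage and turnover, which mRNA counts do not record.

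The element that joins the 3 classes is the BH3 motif, the short helix that fits the groove of the pro-survival proteins. The translated RefSeq coding sequences were searched for a leucine followed at a fixed distance by a small residue and an aspartate. After that aspartate the pattern required an acidic residue or glycine and then a hydrophobic residue. It found 1 match in each of the 9 members searched. The coding stretches of 5 members are shown, each 42 bases on the coding strand in build GRCm38.p6, to let a pro-survival gene, an effector and 3 BH3-only genes be compared. Capitals mark the leucine codon and the adjoining codons of the small residue and the aspartate.
Mcl1, chr3:95659424-95659465, plus strand: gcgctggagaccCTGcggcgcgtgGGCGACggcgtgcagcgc
Bax, chr7:45465994-45466035, minus strand: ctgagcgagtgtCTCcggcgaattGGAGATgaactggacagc
Bcl2l11, chr2:128147138-128147179, plus strand: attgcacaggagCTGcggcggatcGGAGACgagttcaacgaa
Bbc3, chr7:16313761-16313802, plus strand: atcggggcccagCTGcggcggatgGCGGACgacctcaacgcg
Bad, chr19:6950780-6950821, plus strand: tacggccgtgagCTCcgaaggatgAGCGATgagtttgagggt
The small residue was glycine in 7 of the 9, alanine in Bbc3 (GCG) and serine in Bad (AGC). No stretch crossed an intron. In Bcl2l11, which is known for splice forms, 3 of 5 RefSeq transcripts held the stretch, and gene-level counts do not separate such forms.

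The libraries held 11029827 to 13185778 counted reads, and the 10 genes took 0.0554% to 0.0622% of them. All 10 passed the filter on low counts and were among the 13112 genes tested. Ythdf2 itself, the m6A reader that was deleted, had 71.9, 73.3 and 91.4 CPM (counts scaled to a common library total) in wild type and 11.7, 14.7 and 11.1 CPM in Ythdf2-/-, so the groups did not overlap (log2 fold change -2.66, SE 0.183, adjusted p = 0.0547 by edgeR). It passed adjustment without wild-type replicate 3 (0.0203), with a term for Y-linked reads (0.0270), with library quality weights in limma-voom (0.000242) and by DESeq2 (1.65e-30). Over all alternatives on counts its log2 fold change ran from -2.78 to -2.54, while its adjusted p reached 0.9999 with the replicate number as a block. No library went against its label. Wild-type replicate 3 stood apart from the other 5 libraries. Its mean Spearman correlation with them over genes was 0.900, against 0.962 to 0.970 for the rest, and it lay at 91.0 on a first principal component that held 74.2% of the variance, where the others lay between -30.6 and -6.04. Fold changes of the members are therefore given with and without it.

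Markers of several cell types moved with that library, in both directions within a list. All 10 neural progenitor markers listed were read in every library, led by Fabp7 and Vim, and their summed level was 3887 CPM in wild-type replicate 3 and 5140 to 7041 CPM in the other 5. That sum followed Fabp7, Vim and Nes, which were lowest there, while 6 of the 10, Sox2 and Pax6 among them, were highest there. The 7 astrocyte markers summed to 7758 CPM there against 1474 to 3563 CPM, the 9 oligodendrocyte lineage markers to 4200 against 1731 to 2164 CPM, and the 10 neuron markers to 2119 against 1274 to 1481 CPM. Single genes went the other way, since wild-type replicate 3 was highest for 4, 5 and 6 genes of these 3 lists but lowest for Olig1, Olig2, Cspg4 and Gap43. Mesenchymal and pericyte markers reached 35.1 CPM against 2.59 to 5.48 CPM, microglia and macrophage markers 13.8 against 5.63 to 9.84 CPM, and endothelial markers 1.01 against 1.41 to 3.51 CPM. The leukocyte gene Ptprc, the endothelial gene Cldn5 and the 4 globin genes were at 0 in every library. The 2 genes of highest RPKM in each marker list had these log2 fold changes over all libraries, with the value without wild-type replicate 3 in second place. They were 0.14 and -0.22 for Fabp7, -0.015 and -0.22 for Vim, -0.017 and 0.16 for the neuron gene Map2, and -0.16 and -0.52 for Gap43. They were -0.66 and -0.23 for the astrocyte gene Aldoc, -0.042 and 0.88 for Gja1, 0.48 and 0.28 for Olig1, and 0.12 and -0.045 for Olig2. None of these 8 genes had an unadjusted p under 0.05 by edgeR in either fit, and Fabp7, Map2, Gja1 and Olig2 changed sign between the fits. The leading genes of the other lists were low, Pdgfrb in wild-type replicate 3 (347 reads) apart, with at most 70 reads for Cd68, 59 for Cd14, 32 for Acta2, 18 for Kdr, 10 for Tek and 7 for Alas2 in any library.

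For 4 further markers, picked after their values were seen, the groups did not overlap. Gfap, an astrocyte filament gene, had 437, 625 and 3046 CPM in wild type and 127, 87.7 and 5.55 CPM in Ythdf2-/- (log2 fold change -4.22, and -2.85 without wild-type replicate 3). The log2 fold changes in the same order were -2.43 and -1.60 for Prom1, -2.33 in both fits for Stmn2, and 0.44 and 0.41 for Cspg4. Of all genes tested, 4.92% were lower and 5.24% higher without overlap, and 20.1% and 18.8% without wild-type replicate 3. None of the 4 passed adjustment by edgeR in either fit. In such bulk RNA, fewer cells of a type and less RNA per cell cannot be told apart, and the part of these markers in the values below was not tested.

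Reads on 4 Y-linked genes split the libraries another way. They numbered 1111, 1638 and 2147 in wild-type replicates 1 and 2 and Ythdf2-/- replicate 3, and 1, 0 and 1 in wild-type replicate 3 and Ythdf2-/- replicates 1 and 2. Cultures with and without Y-linked reads were thus unevenly spread over the genotypes, and wild-type replicate 3 was the only wild-type library of its kind.

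Per length, the effector Bax was the most abundant member and 4 of the 5 BH3-only genes lay below the median gene when levels were taken from the raw counts. The level of each gene, in RPKM (CPM per kilobase of exon), was computed from the raw counts and averaged over the 6 libraries. Bax had 155.7 ± 36.7 RPKM (SD, n = 6), above 97.2% of genes tested. Mcl1, a pro-survival protein of rapid turnover, followed at 61.3 ± 8.07 RPKM, and Bak1, the effector that resides at mitochondria, at 38.3 ± 5.38 RPKM. The steps from Bax to Mcl1, from Mcl1 to Bak1 and from Bak1 down to Bcl2l1 were clear, since the ranges over the libraries did not overlap and the order was the same in 6 of 6 libraries. The deposited FPKM, which rest on far fewer reads, gave another order, with 17.8 FPKM for Bad and 17.3 FPKM for Bcl2l11 above 10.6 FPKM for Bax.

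Bcl2l1, which encodes Bcl-xL, had 14.3 ± 0.942 RPKM and Bad, the BH3-only protein that growth factor signalling silences, 13.9 ± 0.946 RPKM. Their ranges overlapped, so they could not be ordered with these lengths. With the shorter gene lengths listed in the deposited FPKM tables the ranges were 19.1 to 22.8 for Bcl2l1 and 13.4 to 16.3 for Bad, without overlap, so their order depends on the length used. The median over all genes tested was 10.3 RPKM. Bad was above the next gene, Bbc3, in 6 of 6 libraries without overlap. The other 5 members ran from 5.63 RPKM for Bbc3 through 5.11 for Bcl2, 4.80 for Bid and 4.08 for Pmaip1 to 3.68 for Bcl2l11, and no neighbours among them were separated beyond their ranges. The listed lengths also moved Bcl2l11 from 3.68 to 5.35 RPKM, above Bid and Pmaip1, still within overlapping ranges. Without wild-type replicate 3 the order of the 10 means was the same, and the same steps had no overlap. Bcl2 itself, the founding member of the family, was thus among the low members in these cells, at 2.98 to 7.73 RPKM.

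**Figure D1:**
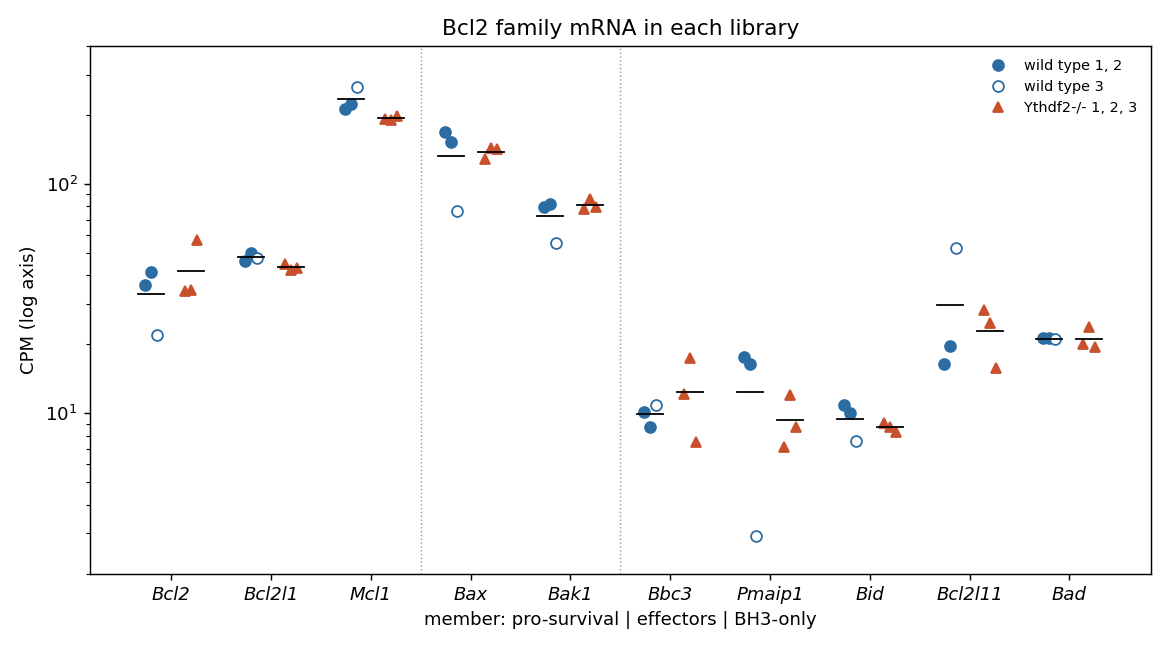
CPM (log axis) of each member in the 3 wild-type and 3 Ythdf2-/- libraries, with black lines at the group means and open circles for wild-type replicate 3. The groups overlapped for 8 of the 10 genes, and for Bcl2, Mcl1, Bax, Bak1, Pmaip1, Bid and Bcl2l11 the open circle was the highest or the lowest point.

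No member was called between the genotypes. By edgeR's quasi-likelihood test 0 of 10 passed an adjusted p of 0.05, as did 0% of all genes tested, and 0 of 10 had an unadjusted p under 0.05, against 3.63% of all genes (476 genes). The smallest adjusted p of a member was 0.999. DESeq2 called 31 genes (0.236%) and 0 members, and no member had an unadjusted p under 0.05 there either. The median log2 fold change was -0.07 over the 10 members and -0.01 over all genes tested. The groups did not overlap for 2 of 10 members, both lower in Ythdf2-/-, while 10.2% of all genes tested did not overlap, made up of 4.92% lower and 5.24% higher.

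Among the pro-survival genes, these 2 were Mcl1 and Bcl2l1. Mcl1 (chr3:95658721-95663179) had 213, 223 and 265 CPM in wild type and 193, 190 and 198 CPM in Ythdf2-/-. All 3 Ythdf2-/- libraries lay below the lowest wild-type one, and they differed little among themselves (193.5 ± 3.89 against 233.8 ± 27.4 CPM, SD, n = 3 each). Its log2 fold change was -0.27 (95% interval -0.60 to 0.05, unadjusted p = 0.0846, adjusted p = 0.999 by edgeR), and -0.17 without wild-type replicate 3 (-0.39 to 0.04).

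Bcl2l1 (chr2:152758732-152831728) was the steadiest of the pro-survival genes, with 46.0, 50.1 and 47.8 CPM in wild type and 44.8, 42.1 and 43.0 CPM in Ythdf2-/-. The groups lay next to each other without overlap, wild-type replicate 3 included. Its log2 fold change was -0.15 (95% interval -0.43 to 0.13), and the same without that library. An increase by more than 1.09-fold lay outside the interval over all 6 libraries, which left room for a fall to 0.745-fold. A single-gene exact permutation test of 3 against 3 cannot go below p = 0.1, so separation of the groups alone cannot carry a call.

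Bcl2 (chr1:106538176-106714290) had 36.3, 41.4 and 21.9 CPM in wild type and 34.3, 34.5 and 56.8 CPM in Ythdf2-/-. The lowest value was that of wild-type replicate 3 and the highest that of Ythdf2-/- replicate 3, while the other 4 libraries lay within 34.3 to 41.4 CPM. This gave a log2 fold change of 0.33 (SE 0.313) and 0.11 (SE 0.248) without wild-type replicate 3. It was 0.051 without Ythdf2-/- replicate 3, so either library decides its size. With a term for Y-linked reads it was 0.60 (SE 0.129, unadjusted p = 0.00382, adjusted p = 0.258 by edgeR). That fit gave an unadjusted p under 0.05 to 2 members, Bcl2 and Bcl2l11, and to 11% of all genes.

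The effectors were level between genotypes in the group means but not in every library. Bax (chr7:45461695-45466898) had 168, 153 and 75.9 CPM in wild type and 129, 144 and 142 CPM in Ythdf2-/-. Wild-type replicate 3 alone lay low, at 0.95 on the log2 scale below the mean of the other libraries. The log2 fold change was 0.07 (SE 0.295) with it and -0.21 (SE 0.0993, adjusted p = 0.338 by edgeR) without it, so that the sign turned on that library. Without it the 3 Ythdf2-/- values lay below both remaining wild-type values.

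Bak1 (chr17:27019812-27028627) had 79.5, 82.2 and 55.5 CPM in wild type and 77.7, 85.8 and 79.5 CPM in Ythdf2-/-. Again the 1 low value was that of wild-type replicate 3, and the other 5 libraries were alike. Over all libraries the log2 fold change was 0.16 (SE 0.177), and without it 0.0028 (95% interval -0.22 to 0.23).

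The BH3-only genes differed in their spread between libraries, which was wide in Pmaip1 and Bcl2l11 and narrow in Bad. Pmaip1, which encodes Noxa, a p53 target and a binding partner of Mcl1, had 17.6, 16.5 and 2.93 CPM in wild type and 7.16, 12.1 and 8.69 CPM in Ythdf2-/-. These values rest on 206, 216 and 32 reads and on 84, 163 and 108 reads. The low value was once more that of wild-type replicate 3, and both other wild-type libraries lay above all 3 Ythdf2-/- libraries. The log2 fold change was -0.41 (SE 0.631) over all libraries and -0.87 (SE 0.241, unadjusted p = 0.0106, adjusted p = 0.205 by edgeR) without it. It was -0.065 without wild-type replicate 1 and -0.14 without wild-type replicate 2. With library quality weights in limma-voom, which gave that library a weight of 0.0901, it was -1.06 (SE 0.254, adjusted p = 0.0566). With a term for Y-linked reads it was 0.28 (SE 0.701), so its sign differed between these fits.

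Bcl2l11 (chr2:128126038-128162547), which encodes Bim, was the mirror image of Pmaip1 in wild-type replicate 3. It had 16.4, 19.6 and 52.8 CPM in wild type and 28.3, 24.7 and 15.7 CPM in Ythdf2-/-, with the highest value in that library. The log2 fold change was -0.37 (SE 0.491) with it and 0.34 (SE 0.264) without it. With the term for Y-linked reads it was -0.61 (unadjusted p = 0.0324, adjusted p = 0.411 by edgeR).

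Bbc3 (chr7:16309583-16318334), which encodes the p53 target Puma, had 10.1, 8.70 and 10.9 CPM in wild type and 12.1, 17.5 and 7.48 CPM in Ythdf2-/-. The Ythdf2-/- libraries held both its highest and its lowest value, and the wild-type values lay between them. Its log2 fold change was 0.32 (SE 0.332), or 0.40 without wild-type replicate 3. Leaving out Ythdf2-/- replicate 2 brought it to -0.0033.

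Bid (chr6:120893119-120916824), which caspase-8 cleaves to link death receptors with mitochondria, had 10.9, 10.0 and 7.60 CPM in wild type and 9.04, 8.74 and 8.29 CPM in Ythdf2-/-. The Ythdf2-/- values fell within the wild-type range, and below it once wild-type replicate 3 was left out (log2 fold change -0.13 with it and -0.26 without it). Bad (chr19:6941861-6951905) had 21.2, 21.2 and 21.1 CPM in wild type and 20.1, 23.7 and 19.5 CPM in Ythdf2-/-. Its log2 fold change was the nearest to 0 of the 10 over all libraries, at -0.0065 (95% interval -0.37 to 0.35), and -0.0078 without wild-type replicate 3. Of its exon bases, 517 are shared with Gpr137 on the opposite strand. The strand setting of the counting is not given in the sources used here, so reads of the 2 genes may not be separated.

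**Figure D2:**
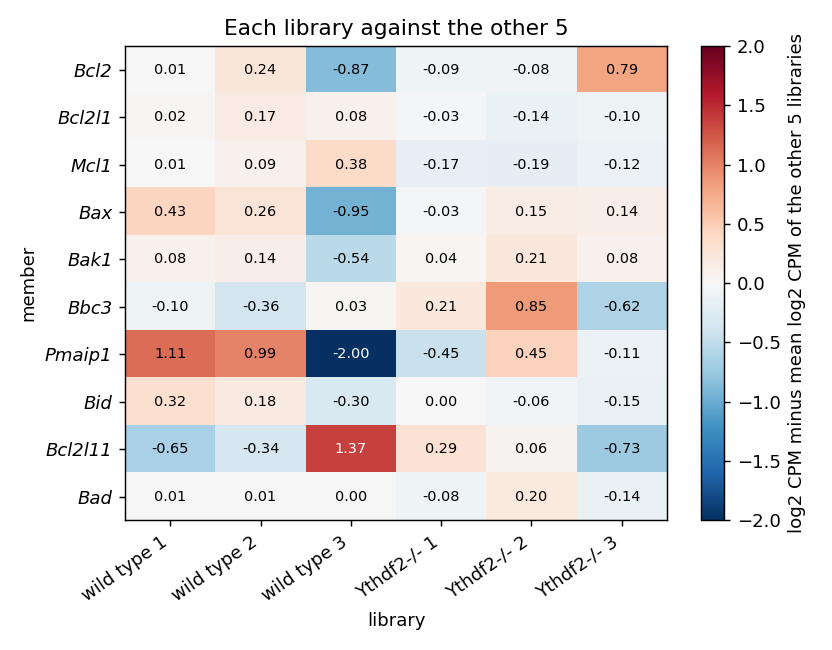
Log2 CPM of each member in each library minus the mean of the other 5 libraries (red higher, blue lower). Wild-type replicate 3 held the largest deviation for 6 of 10 members, lowest for Pmaip1 and highest for Bcl2l11 (1.37).

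The spread between libraries followed 1 library more than genotype. Wild-type replicate 3 was the library farthest from the others for 6 of 10 members (Bcl2, Mcl1, Bax, Bak1, Pmaip1 and Bcl2l11), as it was for 54.7% of all genes tested. The median absolute deviation of the members from the other libraries was 0.46 on the log2 scale there and 0.086 to 0.21 in the other 5. Over all genes tested it was much the same, 0.45 in wild-type replicate 3 and 0.14 to 0.24 in the other 5. There Bcl2, Bax, Bak1, Pmaip1 and Bid had their lowest value and Mcl1 and Bcl2l11 their highest, so that pro-survival and BH3-only genes moved in both directions and both effectors were low.

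**Figure D3:**
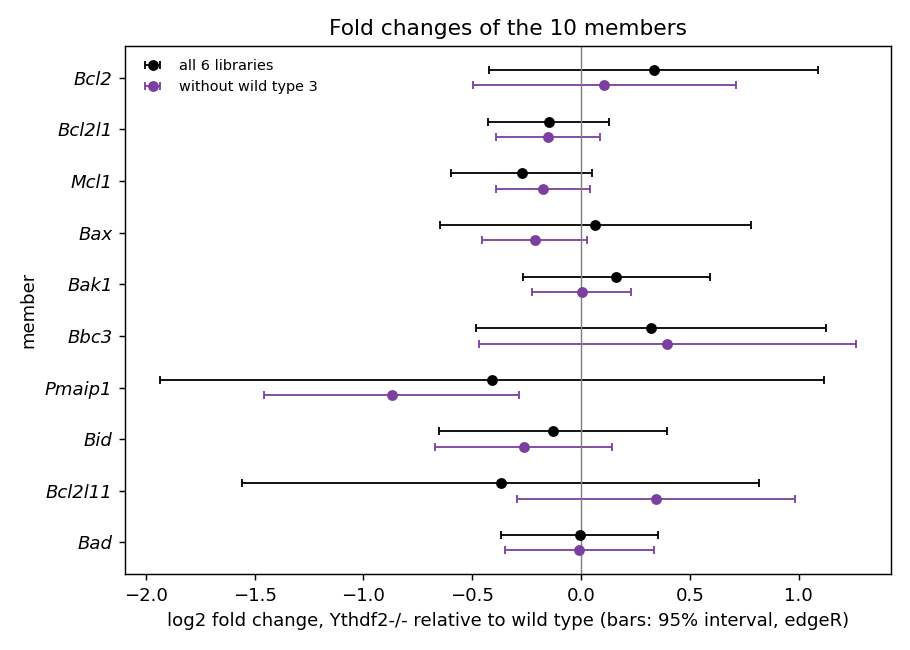
Log2 fold change of Ythdf2-/- relative to wild type for the 10 members, with 95% intervals by edgeR, over all 6 libraries (black) and without wild-type replicate 3 (purple). All 10 black intervals cross 0, and of the purple ones that of Pmaip1 does not (-1.46 to -0.29).

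Without wild-type replicate 3, 1 of 10 members (Pmaip1) had an unadjusted p under 0.05, with a lower level in Ythdf2-/-, against 16.6% of all genes, of which the lower ones were 8.58% of all genes, and 0 of 10 passed adjustment, against 0.0151% of all genes (2 genes). The groups then did not overlap for 5 members, Bcl2l1, Mcl1, Bax, Pmaip1 and Bid, all of them lower in Ythdf2-/-, while 38.9% of all genes did not overlap, 20.1% lower and 18.8% higher. The quality weights gave 2 members, Pmaip1 and Mcl1, an unadjusted p under 0.05, against 29.9% of all genes, and an adjusted p under 0.05 to 0 members, against 4.82% of all genes.

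**Figure D4:**
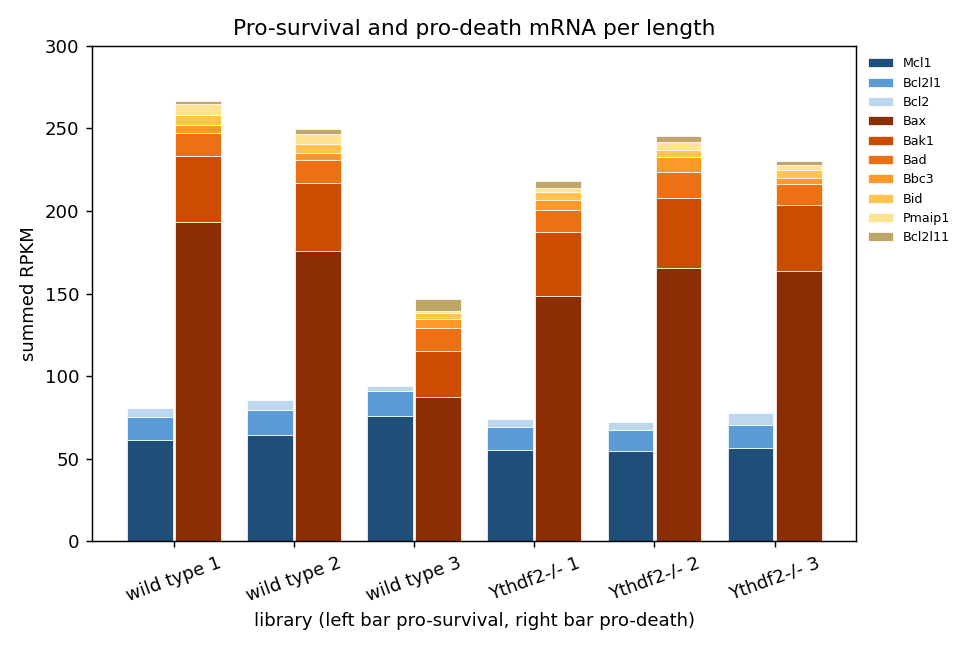
Summed RPKM of the 3 pro-survival genes (left bar, blue) and the 7 pro-death genes (right bar, orange) in each library, split by gene. Mcl1 and Bax make up most of each bar, and the pro-death bar of wild-type replicate 3 is the shortest, at 146.9 RPKM.

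Summed per length, the pro-survival genes mainly repeated Mcl1. Their summed level was 80.4, 85.4 and 93.9 RPKM in wild type and 74.0, 72.3 and 77.9 RPKM in Ythdf2-/- (86.6 ± 6.79 against 74.7 ± 2.85 RPKM, SD, n = 3 each). The groups did not overlap. Without Mcl1, the sum was 19.5 ± 1.70 RPKM in wild type and 19.2 ± 1.74 RPKM in Ythdf2-/-, and the groups overlapped. On the CPM scale, where long genes count more, the pro-survival sums overlapped too. The difference of the summed RPKM was -11.8 over all libraries and -8.19 without wild-type replicate 3, and no test was made of it.

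The 7 pro-death genes, effectors and BH3-only genes together, summed to 266.9, 249.5 and 146.9 RPKM in wild type and 218.1, 245.2 and 230.1 RPKM in Ythdf2-/-. The wild-type libraries held both the highest and the lowest value, and most of the sum was Bax. The mean difference was 10.0 RPKM higher in Ythdf2-/- with wild-type replicate 3, and the sign turned without it (-27.1 RPKM). The BH3-only genes alone summed to 32.8 ± 0.922 RPKM in wild type and 31.4 ± 5.33 RPKM in Ythdf2-/-, with overlap.

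The balance of the 2 sides did not separate the genotypes. The log2 ratio of pro-survival to pro-death RPKM was -1.73, -1.55 and -0.65 in wild type and -1.56, -1.76 and -1.56 in Ythdf2-/-, so the pro-survival share was 23.2%, 25.5% and 39.0% against 25.3%, 22.8% and 25.3%. All libraries but wild-type replicate 3 lay between 22.8% and 25.5%. The mean log2 ratio differed by -0.32 with that library and by 0.010 without it, and no test was made of a score over the members. The log2 ratio of Bax to Bcl2 per length, a common readout of this balance, was 5.29, 4.97 and 4.87 in wild type and 4.99, 5.14 and 4.41 in Ythdf2-/-, again with overlap.

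The rest of the pathway was read from lists of genes that act beside, before and after the members, and 0 genes on them passed an adjusted p of 0.05 by edgeR in either direction or an unadjusted p under 0.05. Without wild-type replicate 3, 0 passed adjustment, and 7 had an unadjusted p under 0.05 (Bok, Foxo1, Foxo3, E2f1, Usp9x, Ywhaq and Casp8), where 16.6% of all genes did. Of 15 other genes of the family, 8 were tested, with 3 higher and 5 lower and a median log2 fold change of -0.11, which turned to 6 higher, 2 lower and 0.16 without wild-type replicate 3. Bcl2a1a, Bcl2a1b, Bcl2a1d, Bcl2l10 and Bcl2l14 had no read in any library. The most abundant were Bnip3l, a mitophagy receptor, with a log2 fold change of -0.17 (SE 0.263), and Bcl2l13, a mitochondrial relative of Bcl2. Bcl2l13 had 153, 157.67 and 138 CPM in wild type and 166, 157.71 and 171 CPM in Ythdf2-/-, so that the groups all but touched (log2 fold change 0.14, SE 0.117).

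Upstream, 7 of 9 transcription factors known to act on the family were tested, with 4 higher, 3 lower and a median of 0.098, or 0.061 without wild-type replicate 3. Trp53, which encodes p53, had 80.4, 79.5 and 50.5 CPM in wild type and 73.2, 68.9 and 63.2 CPM in Ythdf2-/-. Its log2 fold change was -0.036 (SE 0.205), and -0.22 without wild-type replicate 3. Jun, a factor of the stress-activated kinase arm, had 162, 150 and 655 CPM in wild type and 151, 194 and 145 CPM in Ythdf2-/-, the 1 high value again in wild-type replicate 3 (log2 fold change -0.98, SE 0.597, and 0.061 without it).

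All 15 regulators of the stability and binding of these proteins found in the tables were tested, with 5 higher, 10 lower and a median of -0.036, or -0.075 without wild-type replicate 3. They include the 14-3-3 proteins, which sequester phosphorylated Bad, led by Ywhae (log2 fold change -0.036, SE 0.164) and Ywhaq (-0.24, SE 0.229). The ubiquitin ligase gene March5 and Ywhaz were lower without overlap of the groups, as were 4.92% of all genes, and are named for that after their values were seen. All 8 genes of the death receptor arm above Bid were tested, with a median of 0.0071, or -0.049 without wild-type replicate 3, led by the TNF receptor gene Tnfrsf1a (0.0020, SE 0.274) and the kinase gene Ripk1 (0.012).

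Downstream of Bax and Bak1, 13 genes of the mitochondrial pathway were tested, with 9 higher, 4 lower and a median of 0.026. Vdac2 and Vdac1, channels of the outer mitochondrial membrane of which the first binds Bak1, were the most abundant. Vdac2 had 473, 465 and 183 CPM in wild type and 388, 274 and 482 CPM in Ythdf2-/- (log2 fold change 0.026, SE 0.404). Vdac1 had 515, 539 and 264 CPM in wild type and 468, 398 and 518 CPM in Ythdf2-/- (0.070, SE 0.296). For both, wild-type replicate 3 was the lowest of the 6 libraries, and without it 10 of the 13 genes were lower in Ythdf2-/-, with a median of -0.15 against 0.014 over all genes.

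Because Ythdf2 binds m6A, the longest RefSeq transcript of each member was searched on its sense strand for GGACT, a common form of the m6A consensus. All 10 held at least 1 match, as did 92.0% of the 13045 genes tested that have such a transcript. Bax had 3.45 matches per kilobase, more than 99.0% of those genes, but this was 3 matches in a transcript of 869 bases. The median transcript had 3112 bases. Bbc3 followed with 2.53 per kilobase (5 matches in 1976 bases), Mcl1 with 2.29 (8 in 3488) and Bad with 2.06 (3 in 1458). By number, Bcl2 held the most matches, 9 in 7209 bases, or 1.25 per kilobase. Pmaip1 had the fewest, at 0.754 per kilobase, and the median over genes was 1.05. A match is a string of letters and not a measured m6A site.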

How the data were processed

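The members and gene lists were chosen with earlier results of these data known. Raw counts, whole reads per gene, were deposited by the authors for 6 input libraries made with a stranded kit; the methods name TopHat and mm10, and the submitters' processing notes name featureCounts, Bowtie2 2.2.9 and RSEM 1.2.15. The authors also deposited expected counts, FPKM and a gene length. The expected counts summed to 1.97% to 2.40% of the raw counts and gave members 0 to 32.19 (median 2), with 12 of 60 member FPKM values listed at 0, so FPKM served only as an alternative, as log2(value + 1), where fold changes of low genes come out too small.

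The 13112 genes kept by filterByExpr went into edgeR 4.0.16 (quasi-likelihood test with robust glmQLFit and glmQLFTest, TMM, genotype as the only term, Benjamini-Hochberg over all genes) in R 4.3.3, after tests on simulated data. CPM used TMM-scaled totals (factors 0.988 to 1.03). RPKM divided CPM by the merged exon length of the RefSeq transcripts (GRCm38.p6). The common biological coefficient of variation was 0.332. A prior count of 2 was added for the log2 CPM behind the correlations and the first principal component, which was taken over 2000 genes of highest variance. Deviations of the members from the other libraries used log2 CPM with nothing added. Those over all genes had a small constant added to CPM. Alternatives were DESeq2 1.42.0, limma-voom (limma 3.58.1) without and with quality weights, other scalings and filters, the gene length listed with the FPKM, a replicate block, a term for Y-linked reads and leaving out each library. Genes named by rule were the members, Ythdf2, the 2 highest by RPKM in each list and up to 3 called, of which 1 is not reported here. Others, such as Gfap, Prom1, Stmn2, Cspg4, March5, Ywhaz, Bmf, Bok and E2f1, were named after their values were seen. The labels number replicates but do not tie them to separate animals, so p-values measure the spread between these cultures. Same-numbered wild-type and Ythdf2-/- libraries deviated oppositely from their group means (correlations -0.25, -0.24 and -0.39), so the numbers were not taken as pairs.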

Additional observations from a re-analysis of the deposited data

How the results depend on the processing

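No member passed an adjusted p of 0.05 under any alternative, and the lowest was 0.0566 (Pmaip1, quality weights). Of 150 member fold changes under 15 alternatives on counts, 138 kept their direction, and Bcl2l1, Mcl1 and Bid kept it in every one. The sign turned with quality weights for Bcl2 (-0.031), Bax (-0.24), Bak1 (-0.031) and Bcl2l11 (0.41), with the term for Y-linked reads for Pmaip1 (0.28), and for Bad with library totals alone (0.0094) and with no filter (0.0067). Leaving out 1 library at a time gave ranges of -0.087 to 0.048 for Bad, -0.21 to 0.28 for Bax (negative without wild-type replicate 3), -0.0033 to 0.58 for Bbc3 (negative without Ythdf2-/- replicate 2) and -0.66 to 0.34 for Bcl2l11 (positive without wild-type replicate 3). It gave 0 to 2 called genes overall and -0.53 to 0.010 for the difference in log2 ratio of pro-survival to pro-death RPKM. That difference was 1.03 from deposited FPKM, and the median member level fell from 9.77 RPKM to 2.93 FPKM. Deposited FPKM turned 5 members: Bcl2l1 (1.33 at a pseudocount of 1 with or without the filter, 3.31 at 0.1), Mcl1 (0.15 and 0.19), Bak1 (-0.28 and -0.32), Bid (0.57 and 1.53) and Bcl2l11 (0.017 at both). The cause of these changes was not tested.

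Genes called overall were 0 by the edgeR test with TMM, 1 with RLE factors, 1 with no filter, 1 with at least 10 counts in every library, 31 by DESeq2, 632 with quality weights, 13 with the Y-linked term and 0 with the replicate block, which also called 0 members. On the other lists DESeq2 called 1 gene (Prom1), the Y-linked term 1 (Gfap) and the quality weights 6 (Ywhaq, Msi1, Prom1, Stmn2, Cspg4 and Rgs5). Read depth was lowest for Pmaip1, Bid and Bbc3, with as few as 32, 83 and 93 reads. Its part in the uncertainty of the fold changes was not tested.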

Other observations

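Some relatives outside the 10 members had larger differences between libraries than most members, and they are named here after their values were seen. Bmf, a BH3-only protein tied to the cytoskeleton, had 9.16, 12.7 and 51.2 CPM in wild type and 34.9, 28.1 and 10.2 CPM in Ythdf2-/-. As for Bcl2l11, wild-type replicate 3 and Ythdf2-/- replicates 1 and 2 were high, and these are the 3 libraries with 0 or 1 Y-linked reads. The log2 fold change of Bmf was 0.0037 over all libraries and 1.15 without wild-type replicate 3 (unadjusted p = 0.0662 by edgeR).

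Bok, an effector-like relative of Bax, had 21.1, 22.0 and 4.67 CPM in wild type and 12.3, 12.9 and 8.77 CPM in Ythdf2-/-, the same order of groups as Pmaip1. Without wild-type replicate 3 its log2 fold change was -0.93 (unadjusted p = 0.00311, adjusted p = 0.169 by edgeR, in a fit that gave an unadjusted p under 0.05 to 16.6% of all genes), and with quality weights its adjusted p was 0.0581. E2f1, a cell cycle factor that acts on several family genes, had 29.7, 24.3 and 2.75 CPM in wild type and 21.5, 17.5 and 21.9 CPM in Ythdf2-/-, so that wild-type replicate 3 stood far below the other 5 libraries.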
